A study of Mus musculus with 18 samples.

Results

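Induced organoids of fetal intestinal type (iFIPC organoids, where iFIPC stands for induced fetal intestinal progenitor cells) were set against mouse embryonic fibroblasts (MEFs), the kind of cell named in the title of the series as the starting point of the conversion. The arrays were chosen by their titles alone. They are 3 arrays of iFIPC organoids and 3 arrays of MEFs, which makes 6 of the 18 arrays of the series. The iFIPC group is labelled as a mixture of spherical organoids (hollow balls) and budding organoids (with crypt-like buds), in proportions that the labels do not give. The MEF group is labelled as embryonic fibroblasts, and its arrays are marked as re-analysed from an earlier study. The labels give C57BL/6 as the strain of every group and no age, sex, passage or treatment. They do not say that these MEFs are the cells that were converted, or whether the 3 organoid arrays come from separate conversions. The p-values therefore measure the spread between arrays within groups, pooled over every group in the fit, and this spread may be technical. In the published method the conversion is driven by forced expression of Hnf4a, Foxa3, Gata6 and Cdx2, and whether the probes for these genes also detect the introduced copies was not tested. A further group, 3 arrays of mixed spherical and budding organoids grown from fetal intestine (FI organoids), was used only to place the values of the induced organoids.

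The intestinal epithelium is a single layer of polarised cells held together by E-cadherin, claudins and desmosomes. Stem cells in crypts, kept by Wnt signals and by growth factors from the cells around them, give rise to absorptive enterocytes and to secretory Paneth, goblet, enteroendocrine and tuft cells. Its identity rests on transcription factors of the Hnf, Cdx, Gata and Foxa families. Fibroblasts in turn build the collagen matrix, carry a contractile actin cytoskeleton, and keep a record of their place in the body in the form of Hox, Tbx and Pitx expression. Before birth the epithelium grows as spheres with a distinct set of markers, and it switches from milk digestion to the digestion of solid food at weaning.

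Promoters of 4 genes of the comparison are shown first, since they hold letters that intestinal or muscle factors are known to bind. They are the 250 bases before the RefSeq transcription start on build GRCm38.p6, each given 5′ to 3′ on the strand of its gene, and the capitals mark the matched letters. The genes were picked for display after their letters and values were seen.

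Sis (the disaccharidase sucrase-isomaltase; CDX site TTTATNGC; chr3:72967864-72968113, minus strand): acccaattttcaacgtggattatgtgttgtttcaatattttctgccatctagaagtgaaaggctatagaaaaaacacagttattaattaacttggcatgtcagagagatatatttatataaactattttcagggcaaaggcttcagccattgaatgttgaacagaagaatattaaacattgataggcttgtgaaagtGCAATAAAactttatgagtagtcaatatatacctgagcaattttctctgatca
Fabp2 (intestinal fatty acid binding protein; CDX site; chr3:122894822-122895071, plus strand): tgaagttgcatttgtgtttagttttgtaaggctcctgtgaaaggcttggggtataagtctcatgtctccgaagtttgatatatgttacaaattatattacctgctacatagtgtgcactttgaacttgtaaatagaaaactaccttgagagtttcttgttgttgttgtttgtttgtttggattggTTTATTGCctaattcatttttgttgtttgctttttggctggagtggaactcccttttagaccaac
Alpi (intestinal alkaline phosphatase; CDX site, which here overlaps the TATA box; chr1:87101607-87101856, minus strand): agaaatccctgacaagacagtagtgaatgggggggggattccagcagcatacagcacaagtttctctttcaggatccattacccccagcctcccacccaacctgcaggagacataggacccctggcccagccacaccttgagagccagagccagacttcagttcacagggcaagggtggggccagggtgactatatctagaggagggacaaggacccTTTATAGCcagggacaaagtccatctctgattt
Actc1 (a muscle actin; CArG box; chr2:114052876-114053125, minus strand): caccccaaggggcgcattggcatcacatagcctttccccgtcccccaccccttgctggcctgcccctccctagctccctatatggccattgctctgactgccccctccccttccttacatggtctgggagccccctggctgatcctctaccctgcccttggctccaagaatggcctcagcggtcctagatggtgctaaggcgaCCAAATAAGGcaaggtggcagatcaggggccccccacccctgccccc

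The match begins 53 bases before the start in Sis, 65 in Fabp2, 33 in Alpi and 47 in Actc1. Both strands were searched in the 11822 promoters of tested genes that the RefSeq table holds. The HNF4 site CAAAGTCCA was found in 19 of 2350 promoters of genes called higher in iFIPC organoids (0.809%), in 8 of 2655 of those called lower (0.301%), in 0.414% of all tested and in 0.4% of the 27025 promoters of the whole table. The CDX site lay in 2.26% of promoters called higher, 2.11% of those called lower, 1.6% of those tested and not called, 1.84% of all tested and 2.39% of the whole table. The CArG box, the site of serum response factor, lay in 4 of 17 promoters of contractile genes, against 1.23% of all tested and 1.39% of the whole table. Srf, the gene of that factor, is among the 4 and was not called. Over all genes the box lay in 1.62% of promoters called higher and 1.36% of those called lower. These are counts of letters and say nothing of binding.

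Levels are log2 units from the 75th percentile over all gene probes on the array, so that a level of 0 is that percentile. Changes are the mean of the iFIPC organoids minus that of the MEFs, given with ± the standard error of the fit. That error is pooled over the samples of all 6 groups of the series, or of the organoid groups against FI organoids. It can be large for a gene that is steady within the MEF and iFIPC arrays. A gene is said to rise or fall only where it was called. In some genes the dimmer side had signal above background on part of its arrays only, and their changes rest partly on levels at background. The percentile lay at 805.3, 1484.4 and 1415.3 intensity units on the MEF arrays and between 1061.8 and 1161.8 on the iFIPC arrays, and 60.19 to 68.67% of probes on the MEF arrays and 60.57 to 64.97% on the iFIPC arrays were well above background. MEF arrays 2 and 3 were nearly the same, with a robust spread of their log2 differences of 0.073 against 0.197 to 0.536 in the other pairs within groups, and were counted as 1 sample (n = 2 for MEFs, n = 3 for iFIPC organoids). The MEF arrays were scanned on another scanner model than the organoid arrays, and no slide holds both, so array set and cell type cannot be told apart. The 7 synthetic spike-in RNAs that were well above background on every array read -1.29 to -0.69 on the iFIPC arrays relative to the MEF arrays after scaling, with a median of -1.01. Scaling by the spike-ins therefore moved the median change of all genes from -0.03 to 0.98, and scaling by the array median moved it to 0.34. A change of about 1 unit can cross the threshold with this choice.

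Of 14933 genes tested, 3022 were called higher in iFIPC organoids (20.2%) and 3479 lower (23.3%), which makes 6501 or 43.5%, with limma where the p adjusted by Benjamini and Hochberg was under 0.05 and the mean log2 levels were 1 or more apart. The levels of the 2 groups did not overlap for 11663 genes (78.1%). These shares are the background against which each list of genes is read. A gene with no signal in MEFs is tested only if every iFIPC array shows it, which favours a call of higher. The reverse holds for genes with no signal in iFIPC organoids. The called genes were 46.5% higher, and this share was 60.2% with median scaling and 77.9% with spike-in scaling. A gene that no array of its dimmer group showed well above background has only a bound, written as "at least N-fold", and 574 of the genes called higher and 668 of those called lower are of this kind. Against FI organoids, with the same iFIPC arrays, 14373 genes were tested, 823 were called higher (5.73%) and 723 lower (5.03%), or 10.8% either way. No slide held both kinds of organoid, which are linked only through crypt organoid arrays on their slides, and with the slide as a term in the fit 68 genes were called higher than in FI organoids and 56 lower. Of the 21 genes named with a call against FI organoids 9 were still called with the slide as a term (Cdx2, Ddr2, Gata4, Gata6, Hoxa9, Hoxa11, S100a4, Tbx15 and Tff1) and 12 were not, with adjusted p between 0.0505 and 0.533 (Ccl2, Clca1, Clu, Ebf3, Foxc1, Gkn2, Hoxa10, Isx, Lct, Lgr5, Spp1 and Twist1). Without FI array 2, and with no slide term, 529 genes were called higher and 447 lower.

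**Figure D1:**
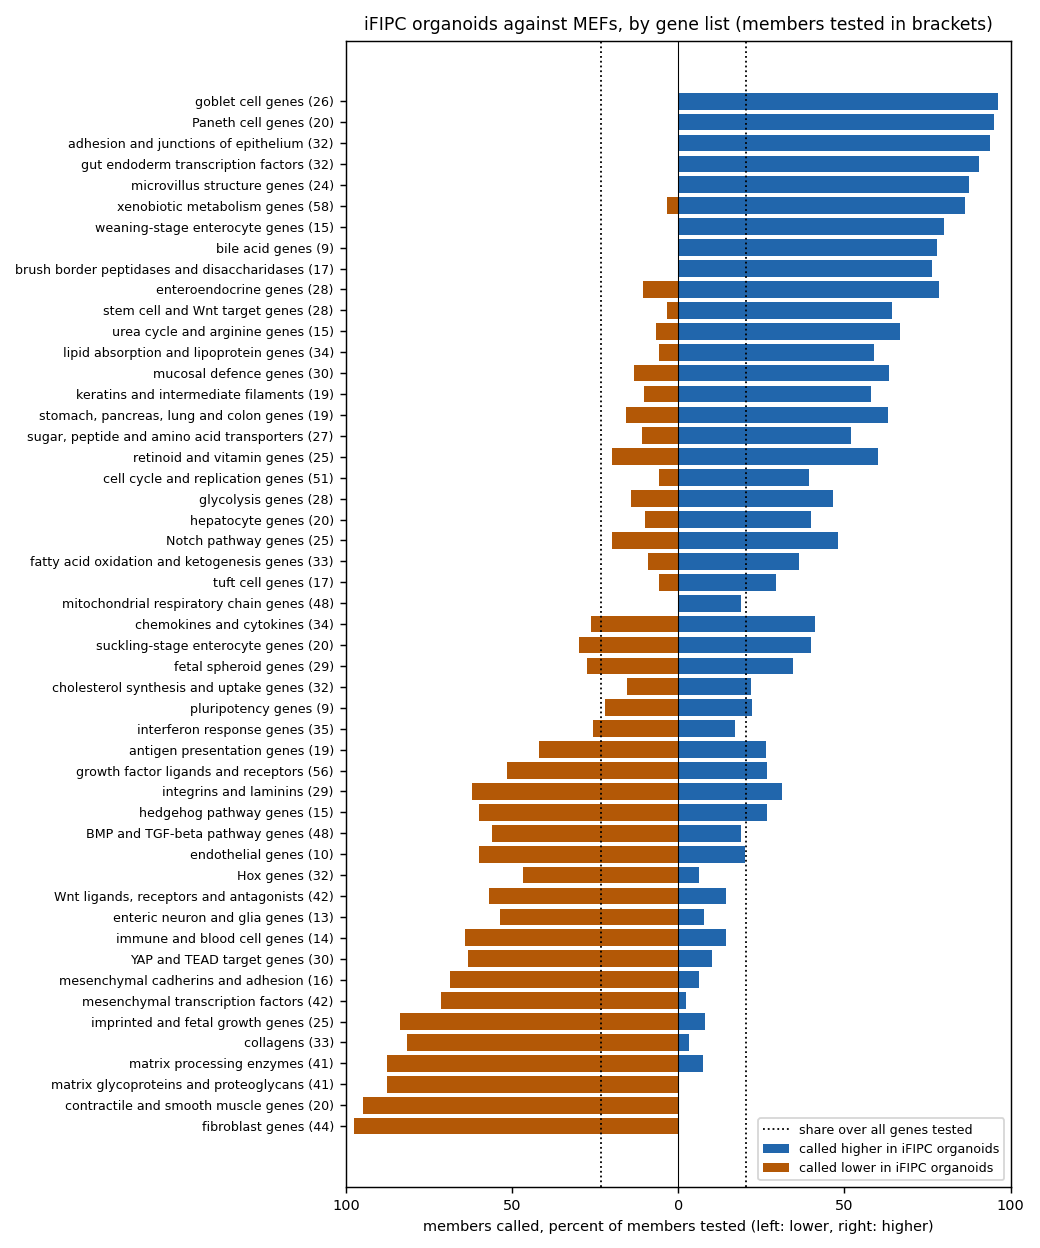
Share of the tested members of each gene list called higher (right, blue) or lower (left, brown) in iFIPC organoids against MEFs, in percent, with the number of members tested in brackets. Dotted lines mark the shares over all genes tested, 20.2% higher and 23.3% lower, and the epithelial lists at the top and the matrix lists at the bottom lie far outside them.

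The labelled cell types were checked against their markers. All 12 intestinal epithelial markers were well above background on every iFIPC array, and their summed signal lay between 10.42 and 10.63 log2 units on these arrays and between 2.3 and 3.01 on the MEF arrays. Cdh1, Cdx1, Cdx2, Epcam and Vil1 were above background on no MEF array. All 12 fibroblast markers were above background on every MEF array, and 8 of them were on every iFIPC array. The summed fibroblast signal was 9.92 to 9.96 in MEFs, 0.05 to 2.71 in iFIPC organoids and -2.51 to 0.35 in FI organoids. Of 6 endothelial markers 5 were above background on no iFIPC array, and 3 of these, Cdh5, Pecam1 and Tie1, on no MEF array either. In bulk RNA, fewer cells of a type and less RNA per cell cannot be told apart.

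Villin, the actin bundler of microvilli (Vil1; probe at chr1:74481962-74482021, mm9), stood at -8.03, -8.33 and -8.77 on the 3 MEF arrays and at 6.42, 6.73 and 6.66 on the 3 iFIPC arrays. Vil1 was at least 7210-fold higher, with an adjusted p of 4.16e-11. E-cadherin, the adhesion molecule of epithelia (Cdh1; chr8:109193812-109193871), read -7.85, -8.15 and -8.29 in MEFs and 5.26, 5.39 and 5.41 in iFIPC organoids. Cdh1 was at least 3030-fold higher, with an adjusted p of 2.59e-14. The epithelial adhesion molecule Epcam read -7.71, -7.04 and -7.36 and 4.94, 5.18 and 5.41. Epcam was at least 2670-fold higher, with an adjusted p of 9.82e-11. The groups were far apart for all 3 genes, and the iFIPC arrays lay close together.

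**Figure D2:**
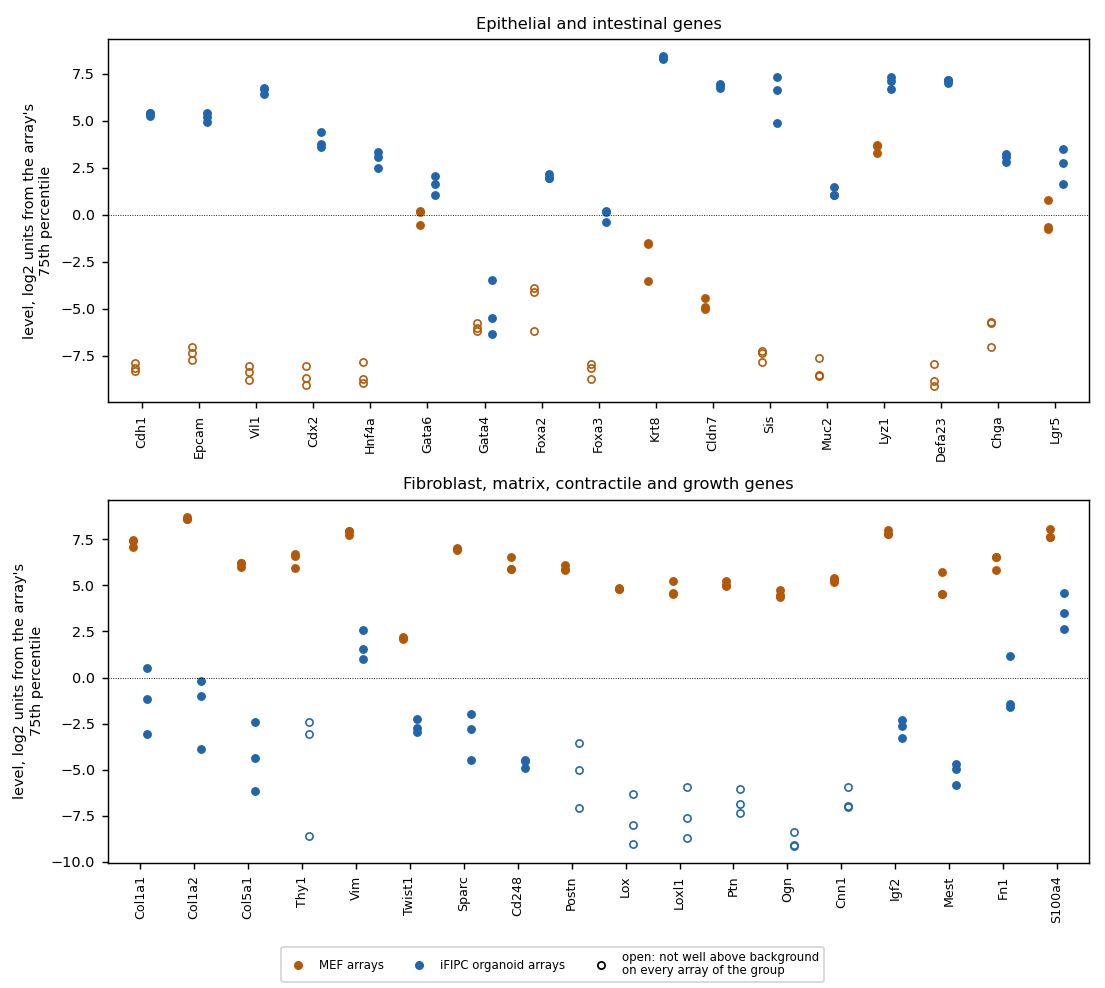
Levels of single genes on each MEF array (brown) and each iFIPC organoid array (blue), in log2 units from the 75th percentile of the array (vertical axis), with open circles where a group is not well above background on all its arrays. The upper panel shows the epithelial genes, where Vil1 lies between -8.77 and -8.03 in MEFs and between 6.42 and 6.73 in organoids, and the lower panel shows fibroblast genes, where Col1a1 falls to between -3.04 and 0.50 and differs between the organoid arrays.

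Transcription factors of gut endoderm rose together: 29 of 32 tested were called higher and none lower, with a median change of 6.22. The caudal factor Cdx2, a master regulator of intestinal identity (probe at chr5:148112547-148112606, mm9), read -8.05, -9.07 and -8.66 in MEFs and 3.78, 4.41 and 3.59 in iFIPC organoids. Cdx2 was at least 1130-fold higher, with an adjusted p of 2.05e-11. Hnf4a, a nuclear receptor of liver and gut (chr2:163398074-163398133), read -7.81, -8.95 and -8.71 and 2.49, 3.36 and 3.08. Hnf4a was at least 584-fold higher, with an adjusted p of 7.46e-08. The epithelial factor Elf3 was at least 650-fold higher. Isx, an intestinal homeobox factor that curbs vitamin A uptake, was at least 622-fold higher, and it was also higher than in FI organoids by 5.81 ± 0.77. The pioneer factor Foxa3 was at least 73.9-fold higher, and Foxa2, above background on 2 MEF arrays, rose by 7.14 ± 1.55. Gata6 was already present in fibroblasts at -0.55, 0.20 and 0.17, read 1.61, 2.05 and 1.07 in iFIPC organoids and rose by 1.76 ± 0.29. Gata4, its close relative, read -5.99, -5.77 and -6.17 and -6.36, -3.49 and -5.48. The groups overlapped, and the change of 0.87 ± 0.62 (adjusted p = 0.233) was not called. Without iFIPC array 1 it was 1.49 (adjusted p = 0.0327), called higher. Gata6, Gata4 and Cdx2 were called lower than in FI organoids, with differences of -2.0 ± 0.23, -3.38 ± 0.60 and -2.08 ± 0.22. With the mean over all its probes Gata6 differed from FI organoids by 0.52.

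Junction genes of epithelium were called higher in 30 of 32 cases and lower in none (median change 8.72). The tight junction gene Cldn7 was measurable on every array, at -4.44, -5.03 and -4.89 in MEFs and 6.74, 6.95 and 6.91 in iFIPC organoids, and its rise of 11.57 ± 0.52 led the called rises of genes well above background on every array of both groups. Ceacam1, an apical adhesion molecule, rose by 12.10 ± 0.67. Tjp1, which encodes ZO-1 and is used by fibroblasts too, changed by 0.93 ± 0.17 (adjusted p = 0.000403) and was not called, but was called without iFIPC array 2, at 1.03 (adjusted p = 0.000521). Cldn1 changed by -2.13 ± 1.23 (adjusted p = 0.147), not called, and without iFIPC array 3 by -4.02 (adjusted p = 7.22e-06), called lower. Among 19 keratins and other intermediate filaments 11 rose. Krt8, the keratin of simple epithelia, rose from -3.53, -1.55 and -1.50 to 8.29, 8.44 and 8.35, by 10.89 ± 0.42. Krt23 was at least 2260-fold higher. The mesenchymal filaments fell: vimentin (Vim) went from 7.74, 7.95 and 7.97 in MEFs to 1.54, 2.57 and 1.03 in iFIPC organoids, a change of -6.14 ± 0.46, and the muscle filament desmin (Des) was at least 65.3-fold lower.

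Microvillus genes rose in 21 of 24 cases. Eps8l3, an actin regulator of the brush border, was at least 2970-fold higher. The adhesion link between microvilli Cdhr5 was at least 1140-fold higher, and the bundler Pls1 rose by 9.37 ± 0.48. Rab11a, a regulator of vesicle traffic in many cell types, changed by 0.30 ± 0.16 (adjusted p = 0.12) and was not called. 

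Paneth cells guard the crypt with antimicrobial proteins, and 19 of 20 tested genes of the list rose. The defensin probe Defa23 read -7.92, -9.08 and -8.84 in MEFs and 7.16, 7.01 and 7.14 in iFIPC organoids. Defa23 was at least 10200-fold higher, with an adjusted p of 2.59e-14. This was the highest bound of the comparison, leaving out symbols of clones and predicted genes. Members of the defensin family are near-identical, so the probe may not tell them apart. The lectins Reg3b and Itln1 were at least 7680-fold higher and at least 6730-fold higher. Lysozyme (Lyz1) read 3.27, 3.69 and 3.66 in MEFs and 7.32, 6.67 and 7.09 in organoids and rose by 3.56 ± 0.82. Lyz2, the lysozyme of macrophages, is a near-identical copy, so the 2 genes may not be told apart. Nupr1, a stress gene, changed by 0.67 ± 0.55 (adjusted p = 0.304) and was not called. Against FI organoids 4 of the 20 Paneth genes were called lower and none higher, against 5.03% and 5.73% of all genes.

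Goblet cells make mucus, and 25 of 26 genes rose, all but Creb3l1. That gene, which also serves matrix-secreting cells, changed by -0.24 ± 0.56 (adjusted p = 0.724), and the sign turned with median scaling, with spike-in scaling and without iFIPC array 2, iFIPC array 3 or MEF arrays 2 and 3. The trefoil peptide Tff3 was at least 5790-fold higher and the disulphide isomerase Agr2 at least 2960-fold higher. The main mucin of the gut, Muc2, read -7.59, -8.49 and -8.56 in MEFs and 1.03, 1.07 and 1.48 in organoids. Muc2 was at least 170-fold higher, with an adjusted p of 2.01e-08. Clca1 was at least 1720-fold higher, and against FI organoids it was higher by 4.77 ± 1.04. The gastric trefoil peptide Tff1 rose by 12.15 ± 1.11 against MEFs and was higher than in FI organoids by 10.46 ± 0.93, where it read -4.68, -3.28 and -3.74.

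Enteroendocrine genes rose in 22 of 28 cases and fell in 3. The granule proteins Chgb and Chga rose by 10.92 ± 0.38 and 9.38 ± 0.59. Chga read -7.01, -5.68 and -5.74 in MEFs, above background on 2 of the 3 arrays, and 3.23, 3.06 and 2.78 in iFIPC organoids. The gut peptide neurotensin (Nts) rose by 6.62 ± 1.18. The prohormone processing enzymes Cpe and Pcsk2 changed by -2.84 ± 0.61 and -1.71 ± 0.38, both called lower. Against FI organoids 13 of the 30 enteroendocrine genes tested were called lower and none higher, against 5.03% and 5.73% of all genes. Tuft cell genes were called higher in 5 and lower in 1 of 17, so 29.4% rose against 20.2% of all genes. The signalling gene Rgs13 was at least 22.2-fold higher, the taste channel Trpm5 rose by 4.45 ± 0.80 (2.54 without MEF arrays 2 and 3) and the receptor Il17rb was at least 17.8-fold higher. Dclk1, a common marker of tuft cells that fibroblasts also express, fell by 2.36 ± 0.38.

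Stem cell and Wnt target genes rose in 18 of 28 cases. Lgr5, the marker of crypt stem cells (probe at chr10:114888847-114888906, mm9), read 0.81, -0.76 and -0.66 in MEFs and 2.77, 1.63 and 3.51 in iFIPC organoids. The fibroblasts had signal on every array, and the change of 2.59 ± 1.86 (adjusted p = 0.24) was not called. Lgr5 was called lower than in FI organoids, with a difference of -1.97 ± 0.48, a call that was lost without FI array 2, at -1.96 (adjusted p = 0.0554). Olfm4, another stem cell marker, was above background on 1 of the 3 MEF arrays and rose by 9.43 ± 1.33. The Wnt feedback ligase Rnf43 rose by 7.23 ± 0.52. Prom1 rose by 6.24 ± 0.27.

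Of 17 brush border enzymes tested 13 rose and none fell. Another 4 of the 21 on the array were not well above background throughout either group. Sucrase-isomaltase (Sis), whose promoter is shown above (probe at chr3:72692810-72692869, mm9), read -7.83, -7.34 and -7.25 in MEFs and 4.88, 7.31 and 6.63 in iFIPC organoids. Sis was at least 5740-fold higher, with an adjusted p of 2.83e-09. Lactase (Lct), the enzyme of milk sugar, read -4.90, -5.75 and -5.36 in MEFs and -3.80, 0.58 and -2.41 in organoids. The organoid arrays spread by several units, the change of 3.35 ± 1.45 (adjusted p = 0.0588) was not called, and without iFIPC array 1 it was 4.31 (adjusted p = 0.0266), called higher. The difference from FI organoids was -4.65 ± 1.48, called lower. That call was lost without FI array 1, 2 or 3 and without iFIPC array 1 or 3, with adjusted p from 0.0644 to 0.126. The starch-digesting enzyme Mgam rose by 8.64 ± 0.34. The protease Tmprss2 was at least 1560-fold higher. Of 27 transporters 14 rose and 3 fell. The glucose uptake transporter Slc5a1 was at least 348-fold higher and the amino acid transporter Slc7a9 rose by 9.46 ± 0.39. Those that fell included Slc2a3 (-5.62 ± 0.85) and Slc38a4 (at least 239-fold lower).

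Lipid genes rose in 20 of 34 cases. The fatty acid binding protein Fabp2, with a CDX site in the window shown above, rose by 9.49 ± 0.56. Colipase (Clps) rose by 9.67 ± 0.47. The chylomicron scaffold Apob was at least 273-fold higher, and the lipid droplet protein Cidec at least 285-fold higher. Apoe, made by fibroblasts and macrophages, fell by 4.20 ± 0.95 and the muscle-type Fabp3 fell by 6.29 ± 0.42. Of 9 bile acid genes tested 7 rose, among them the transporter Slc51a (at least 449-fold higher) and the ileal uptake transporter Slc10a2 (at least 92-fold higher). Another 6 of the 15 on the array, Fabp6 among them, were not well above background throughout either group. The bile acid receptor Nr1h4 rose by 8.63 ± 1.13. Of 25 retinoid and vitamin genes 15 rose and 5 fell. The calcium binding protein S100g rose by 9.02 ± 1.07. Crabp1, which binds retinoic acid in embryonic mesenchyme, was at least 1250-fold lower and Crabp2 fell by 5.21 ± 0.92.

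Detoxification genes rose in 50 of 58 cases. Gsta2 rose by 12.58 ± 0.46 and Gsta1 by 12.02 ± 0.32, which are near-identical copies that a probe may not separate. The cytochrome Cyp2c65 rose by 12.54 ± 0.59. The peroxidase of intestinal epithelium Gpx2 went from -4.51, -4.49 and -4.19 to 7.30, 6.60 and 6.90, a rise of 11.35 ± 0.58. Cyp1b1, a cytochrome of mesenchymal cells, fell by 2.98 ± 0.75. Urea cycle genes rose in 10 of 15 cases. Carbamoyl-phosphate synthase (Cps1) was at least 485-fold higher and ornithine transcarbamylase (Otc) at least 247-fold higher, while Ass1 fell by 3.29 ± 0.53.

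Weaning-stage genes rose in 12 of 15 cases and fell in none. Suckling-stage genes were called higher in 8 and lower in 6 of 20 cases, and with spike-in scaling in 11 and 4. Lct, the lactase gene, is in both lists and was not called, and the difference between the lists was not tested. Krt19, a keratin of the list, rose by 6.35 ± 0.23, and the endocytic receptor Cubn by 4.28 ± 1.1. The endocytic adaptor Dab2, which serves uptake of milk proteins, fell by 7.41 ± 1.08. Alpi, one of the weaning genes, was at least 165-fold higher.

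Collagens were called lower in 27 of 33 cases and higher in 1, with a median change of -4.98. Col1a2, a chain of type I collagen (probe at chr6:4490619-4490678, mm9), read 8.74, 8.60 and 8.59 in MEFs and -1.03, -0.20 and -3.87 in iFIPC organoids. The change was -10.36 ± 0.97. Col1a1, the other chain, read 7.09, 7.42 and 7.45 and -1.16, 0.50 and -3.04, a change of -8.50 ± 1.39. Col5a1 fell by 10.42 ± 0.95. The 3 organoid arrays differed in these genes, with array 2 highest and array 3 lowest, yet all stood far below the MEFs. Col17a1, a collagen of basal keratinocytes, rose by 4.35 ± 1.68 with iFIPC levels of -0.83, -4.0 and 3.77. That call was lost without MEF array 1, without MEF arrays 2 and 3, and without iFIPC array 1 or 3, with adjusted p from 0.0542 to 0.126, and without iFIPC array 3 the change was 2.29. Of the glycoproteins and proteoglycans 36 of 41 were called lower and none higher. Ogn was at least 2250-fold lower. Periostin (Postn) fell by 11.21 ± 1.45, microfibril gene Mfap4 fell by 11.47 ± 0.44 and Fbln5 fell by 10.59 ± 0.30. The glue gene Sparc read 7.03, 6.97 and 6.92 in MEFs and -2.78, -1.96 and -4.48 in organoids and fell by 10.06 ± 0.78.

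Enzymes that process matrix were called lower in 36 and higher in 3 of 41 cases. The collagen crosslinkers Lox and Loxl1 were at least 2680-fold lower and at least 2720-fold lower. The procollagen protease Adamts2 was at least 1540-fold lower and the gelatinase Mmp2 fell by 10.50 ± 1.52. The enzymes that rose were Mmp7, the matrilysin of Paneth cells (10.14 ± 0.43), the epithelial Mmp15 (5.43 ± 0.28) and the crosslinker Tgm2 (1.95 ± 0.35). Integrins and laminins divided, with 9 higher and 18 lower of 29, and 11 and 14 with spike-in scaling. Laminin chain Lamb3, of epithelial basement membranes, was at least 482-fold higher, its partner integrin Itgb4 rose by 6.37 ± 0.27, and Itgb6 was at least 76.7-fold higher. The collagen receptor Itga11 fell by 11.21 ± 1.16 and the mesenchymal laminin chain Lama4 fell by 9.11 ± 0.98. Contractile genes were called lower in 19 of 20 cases. Calponin (Cnn1) went from 5.18, 5.36 and 5.41 in MEFs to -6.95, -7.02 and -5.96, a change of -11.93 ± 0.56. Actc1, whose promoter holds the CArG box shown above, fell by 7.14 ± 0.41, and the serum response factor gene Srf changed by -0.48 ± 0.24 (adjusted p = 0.0902) and was not called.

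Fibroblast genes, a list of 44, were called lower in 43 cases (median change -8.18). Lox was among the largest falls of the comparison, as were Ptn, a growth factor of mesenchyme (at least 3240-fold lower), and Cd248, a fibroblast surface marker, which fell by 10.86 ± 0.40. The surface marker Thy1 fell by 10.96 ± 1.78, with iFIPC levels of -3.04, -2.41 and -8.58 against 5.92, 6.69 and 6.58 in MEFs. The member not called was Gas6, the ligand of Axl, at 6.12, 5.99 and 6.0 and 5.92, 5.03 and 4.62. It changed by -0.87 ± 0.66 (adjusted p = 0.264).

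Some fibroblast genes were still measured in iFIPC organoids. Of the 44 fibroblast genes 29 were well above background on all 3 iFIPC arrays, and 28 of these were at the same time called lower than in MEFs. The same 29 were the only members tested against FI organoids, and 17 were called higher and none lower. Signal on every iFIPC array favours calls in that direction. The collagen receptor Ddr2 (probe at chr1:171903117-171903176, mm9) read 4.22, 4.55 and 4.51 in MEFs, -0.12, -1.0 and 0.40 in iFIPC organoids and -8.22, -8.68 and -9.38 in FI organoids. It changed by -4.62 ± 0.69 against MEFs, called lower, and was at least 105-fold higher than in FI organoids (adjusted p = 8.78e-05), where no array showed it well above background. S100a4, a calcium binding protein of fibroblasts, read 8.06, 7.62 and 7.64, 3.50, 2.64 and 4.59 and -2.16, -3.87 and -3.63 in the same order, a change of -4.27 ± 0.59 against MEFs and 6.79 ± 0.55 against FI organoids. Twist1, the mesenchymal regulator, went from 2.21, 2.12 and 2.08 to -2.95, -2.72 and -2.23, a change of -4.79 ± 0.68, and was at least 19.9-fold higher than in FI organoids (adjusted p = 0.000462). These genes stood between the fibroblasts and the organoids of native intestine. The share of all genes called above FI organoids was 5.73%, over genes with signal throughout either group. None of the list counts against FI organoids, here or in other paragraphs, was redone with the slide as a term.

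**Figure D3:**
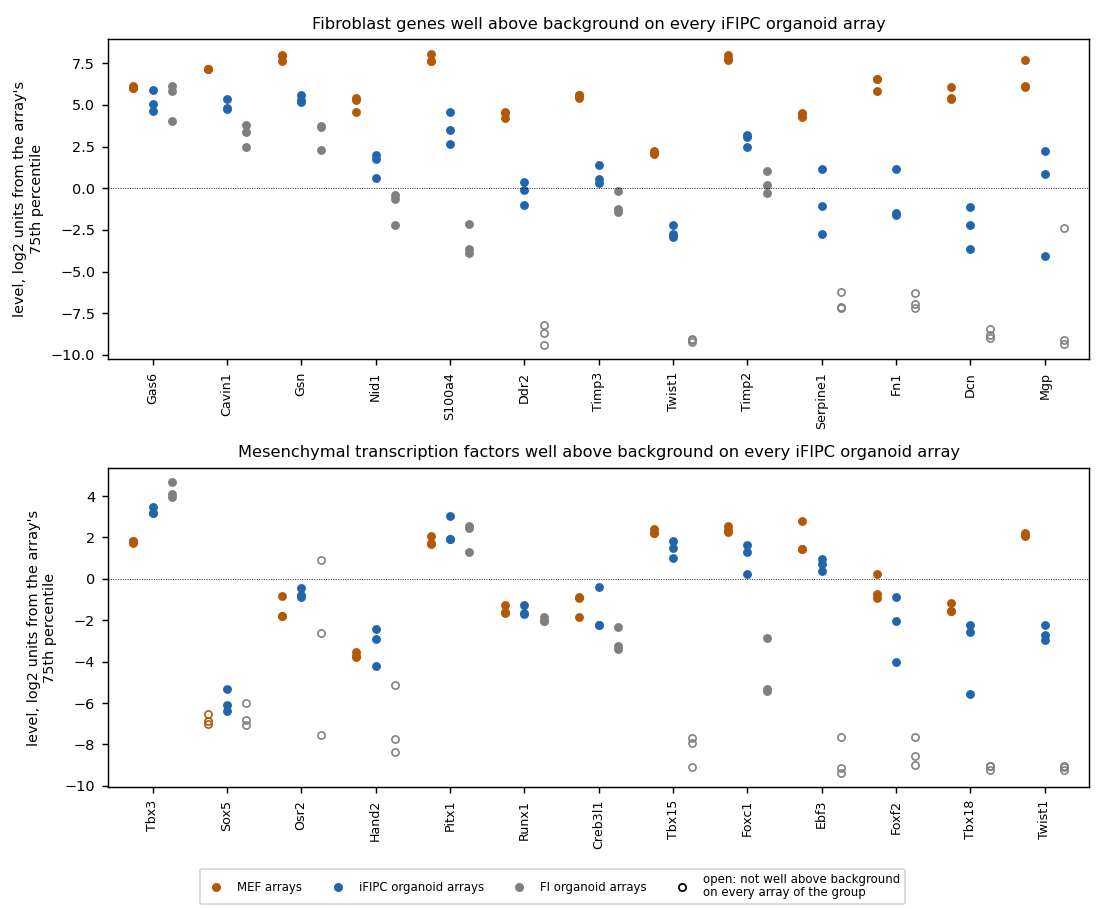
Levels of genes still well above background on every iFIPC organoid array, in MEFs (brown), iFIPC organoids (blue) and FI organoids (grey), in log2 units from the 75th percentile of the array, 3 arrays a group, with open circles where a group is not well above background on all arrays. In the upper panel Ddr2 lies between -1.0 and 0.40 in iFIPC organoids, below the MEFs and above the FI organoids, and in the lower panel Tbx15 lies between 1.02 and 1.83 in iFIPC organoids.

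Mesenchymal transcription factors were called lower in 30 of 42 cases and higher in 1. Twist2 fell by 8.88 ± 0.48, Prrx2 fell by 8.40 ± 0.87, and Snai1, a driver of the mesenchymal state, fell by 8.22 ± 1.28. Tbx15, a patterning factor of trunk and limb (probe at chr3:99157901-99157960, mm9), read 2.39, 2.20 and 2.21 in MEFs, 1.83, 1.02 and 1.51 in iFIPC organoids and -7.68, -7.94 and -9.07 in FI organoids. It changed by -0.84 ± 0.43 (adjusted p = 0.103) against MEFs, which was not called, and was at least 338-fold higher than in FI organoids (adjusted p = 2.1e-06). Ebf3 changed by -1.42 ± 1.61 (adjusted p = 0.456) against MEFs, not called, and was at least 199-fold higher than in FI organoids (adjusted p = 0.00447). Foxc1 changed by -1.37 ± 1.05 (adjusted p = 0.271), not called, and stood 5.59 ± 1.07 above FI organoids. The hindlimb factor Pitx1 read 2.05, 1.75 and 1.68 and 3.03, 1.94 and 1.93 and changed by 0.42 ± 1.38 (adjusted p = 0.804), not called. Its difference from FI organoids was 0.2, also not called. Tbx3 was the member that rose, by 1.51 ± 0.52, a call that was lost without MEF array 1, MEF arrays 2 and 3 or iFIPC array 1, with adjusted p from 0.0548 to 0.0927. Of the 27 members tested against FI organoids, 12 were called higher and 1 lower, against 5.73% and 5.03% of all genes. All 12 were among the 24 with signal on every iFIPC array, which favours calls in that direction.

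Hox genes, which mark position along the body, were called lower in 15 of 32 cases and higher in 2. With spike-in scaling the counts were 6 lower and 6 higher, and the median change of the list was -1.22 in place of -2.22. The genes that rose were Hoxa9 and Hoxa13, at the posterior end of the Hoxa cluster. Hoxa9 read -0.54, -0.49 and -0.49 in MEFs, 1.60, 1.44 and 1.88 in iFIPC organoids and -2.72, -2.99 and -2.98 in FI organoids, a rise of 2.15 ± 0.29 against MEFs and of 4.53 ± 0.15 against FI organoids. Hoxa13 read -3.90, -5.54 and -5.75 and -2.57, -2.85 and -2.62, a rise of 2.09 ± 0.82. That call was lost without MEF arrays 2 and 3 and without iFIPC array 1, 2 or 3, with adjusted p from 0.0616 to 0.318, and without MEF arrays 2 and 3 the change was 1.22. Hoxa10 read 0.54, 0.18 and 0.27 in MEFs, 2.58, 2.15 and 2.49 in iFIPC organoids and -8.78, -8.76 and -6.01 in FI organoids. It stood 10.25 ± 0.96 above FI organoids, of which 1 of 3 arrays showed it well above background, and its change of 2.02 ± 0.95 (adjusted p = 0.0781) against MEFs was not called. Hoxa11 (probe at chr6:52192107-52192166, mm9) read 2.35, 1.64 and 1.59, 3.13, 2.73 and 3.05 and -9.11, -6.09 and -6.68, and it stood 10.26 ± 0.63 above FI organoids, of which 2 of 3 arrays showed it well above background. For both genes the size against FI organoids rests partly on levels at background. Of the 26 Hox genes tested against FI organoids, 9 were called higher and none lower, against 5.73% and 5.03% of all genes. All 9 were among the 23 with signal on every iFIPC array, which favours calls in that direction. The largest called falls were in the Hoxc and Hoxd clusters, with Hoxd11 at -4.67 ± 1.18 and Hoxc8 at -4.21 ± 0.82. Each of these 2 was well above background on 1 of 3 iFIPC arrays. In the Hoxb cluster Hoxb8, Hoxb9 and Hoxb7 changed by -4.83 ± 2.57, -4.54 ± 2.1 and -4.34 ± 3.23. These were not called (adjusted p = 0.115, 0.0745 and 0.255). Hoxd9 changed by 0.24 ± 0.48 (adjusted p = 0.682) at the probe used, which was not called, and another probe for it was called lower.

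**Figure D4:**
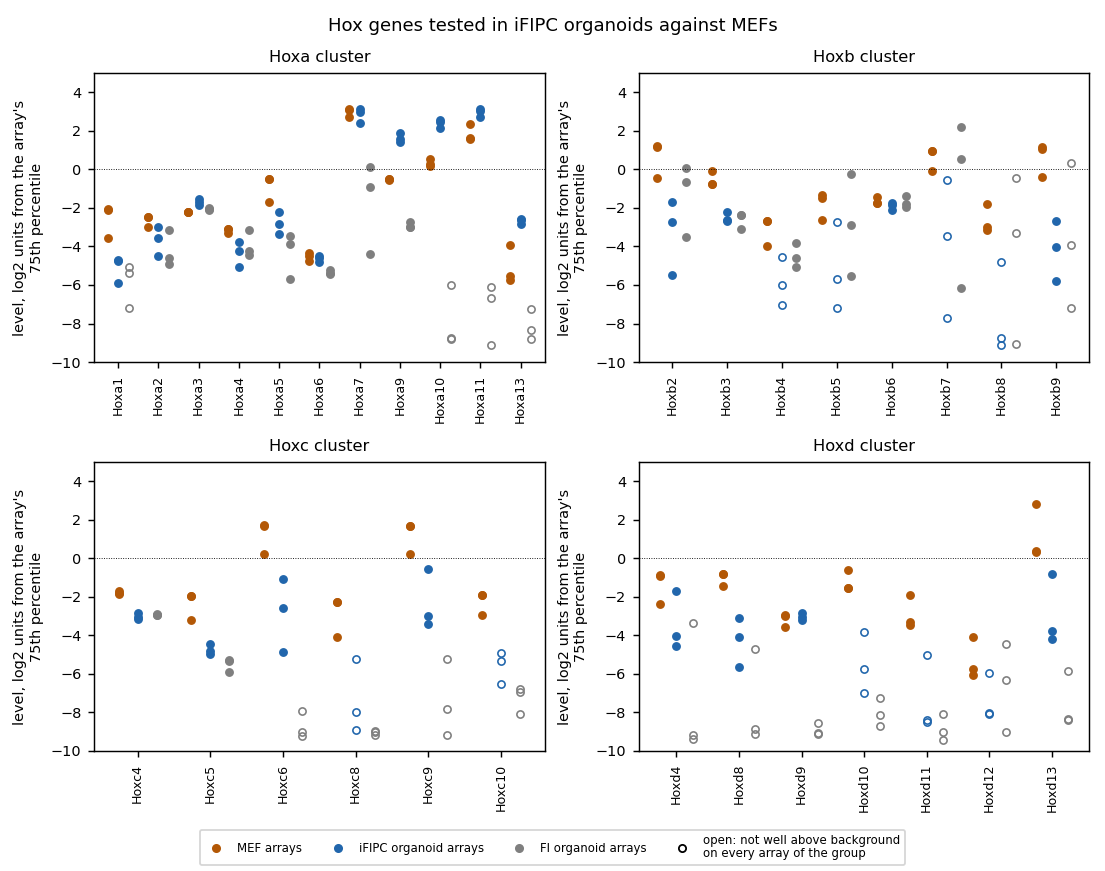
Levels of the tested Hox genes by cluster in MEFs (brown), iFIPC organoids (blue) and FI organoids (grey), in log2 units from the 75th percentile of the array, 3 arrays a group, with open circles where a group is not well above background on all arrays. Hoxa11 lies between 2.73 and 3.13 in iFIPC organoids and between -9.11 and -6.09 in FI organoids, where 2 of 3 arrays showed it well above background.

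Wnt ligands, receptors and antagonists were called lower in 24 and higher in 6 of 42 cases, and with spike-in scaling in 21 and 13. The antagonist Sfrp1 was at least 363-fold lower, and Rspo2, the stromal R-spondin that feeds stem cells, was at least 296-fold lower. Dkk2 and Dkk3 changed by -7.79 ± 1.12 and -7.84 ± 1.18, both called lower. Wnt3, the ligand made by Paneth cells, read -7.85, -7.97 and -8.25 in MEFs and 0.35, -0.50 and -0.05 in organoids and was at least 70.7-fold higher. The Wnt feedback antagonist Notum rose by 3.29 ± 0.65 and Sfrp5 by 2.80 ± 0.60. BMP and TGF-beta genes were called lower in 27 and higher in 9 of 48 cases, and with spike-in scaling in 19 and 13. The BMP antagonist Grem1, made by stromal cells near crypts, fell by 8.91 ± 0.63. Tgfb3 fell by 7.95 ± 0.73, and the ligands Bmp7 and Bmp2 rose by 4.40 ± 0.37 and 3.04 ± 0.37.

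The hedgehog ligand Ihh, sent by epithelium to mesenchyme, was at least 221-fold higher, and genes of the receiving cell fell: Gli3 fell by 8.66 ± 0.53 and Gas1, a co-receptor, fell by 8.81 ± 0.92, and Gli2 was at least 67.4-fold lower. In all 4 rose and 9 fell of 15. Notch genes rose in 12 and fell in 5 of 25 cases, and with spike-in scaling in 16 and 3. The ligands Dll1 and Jag2 rose by 4.56 ± 0.43 and 6.23 ± 0.55, and the feedback gene Nrarp was at least 65.6-fold higher. Dlk1, a relative of the Notch ligands expressed in fetal tissue, fell by 6.55 ± 1.04 and Hey1 fell by 4.46 ± 0.58. Growth factor genes fell in 29 and rose in 15 of 56 cases, and with spike-in scaling in 26 and 22. The PDGF receptors Pdgfra and Pdgfrb, marks of fibroblasts, changed by -9.14 ± 0.83 and -8.66 ± 0.68, both called lower, and Fgfr4 rose by 6.51 ± 0.39. The neuregulin receptor Erbb3 rose by 8.79 ± 0.47, and the EGF receptor ligand Areg by 6.60 ± 0.74.

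**Figure D5:**
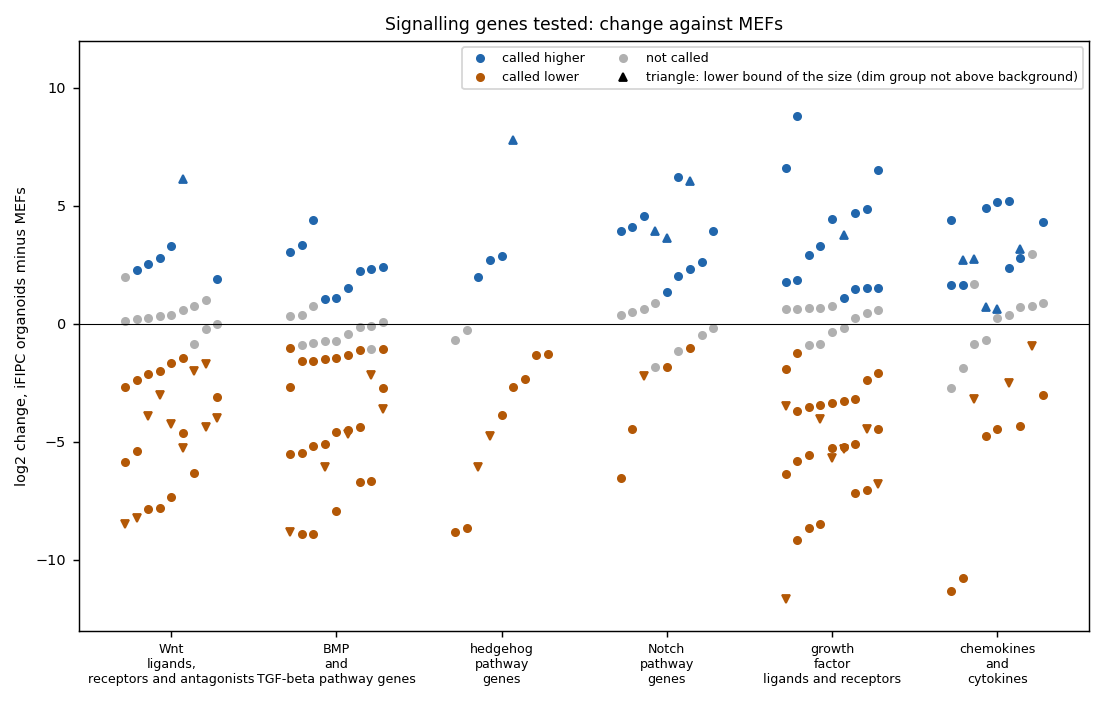
Log2 change of each tested signalling gene, iFIPC organoids minus MEFs (vertical axis), by list, in blue where called higher, brown where called lower and grey where not called, with triangles for bounds of the size. Ligand and receptor genes of the Wnt, hedgehog and growth factor lists lie on both sides of 0, with more falls than rises, and the Notch genes lie more above it.

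Fetal spheroid genes were called higher in 10 and lower in 8 of 29 cases, which is 34.5% and 27.6% against 20.2% and 23.3% of all genes. With quantile normalization the median change of the list turned from 0.03 to -0.11, and it was 0.39 with median scaling and 1.04 with spike-in scaling. With spike-in scaling 12 were called higher and 7 lower. Among those that rose are genes of epithelial cells: Mal2 rose by 9.83 ± 0.58, Cldn4 by 8.94 ± 0.68 and Krt7 by 7.95 ± 0.64, and Vsig1 was at least 175-fold higher. Spp1, a secreted matrix phosphoprotein, went from 8.28, 7.94 and 7.96 in MEFs to 1.61, 2.41 and 2.24 in organoids, a change of -6.03 ± 1.98, and stood 7.52 ± 2.01 above FI organoids, of which 2 of 3 arrays showed it well above background. Its call against MEFs was lost without MEF array 1 or MEF arrays 2 and 3, with adjusted p from 0.0618 to 0.0765, and that against FI organoids without any one of FI arrays 2 and 3 or iFIPC arrays 1 to 3, with adjusted p from 0.0505 to 0.0801. Clu, a gene of regenerating epithelium that was chosen after its values were seen, rose by 4.91 ± 0.84 and stood 4.26 ± 0.84 above FI organoids. With the slide as a term the calls of Spp1 and Clu against FI organoids were lost. Of the 29 list members tested against FI organoids, 12 were called higher and none lower, against 5.73% and 5.03% of all genes. All 29 had signal on every iFIPC array, which favours calls of higher. Imprinted and fetal growth genes were called lower in 21 of 25 cases. The growth factor Igf2 (probe at chr7:149836673-149836709, mm9) read 7.99, 7.79 and 7.78 in MEFs and -3.30, -2.64 and -2.33 in organoids, a change of -10.64 ± 1.47. Mest fell by 10.27 ± 0.61, and the noncoding Meg3 fell by 10.35 ± 0.74. Phlda2, an imprinted gene of the placenta, rose by 3.90 ± 0.53. YAP and TEAD targets were called lower in 19 and higher in 3 of 30 cases, and with spike-in scaling in 14 and 5, with Axl at -8.45 ± 0.74, Ccn1 at -4.27 ± 0.26 and Ccn2 at -3.59 ± 0.61, and Wwc1 higher by 3.23 ± 0.32.

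Respiratory chain genes were called higher in 9 of 48 cases and lower in none, a share of 18.8% against 20.2% of all genes. With spike-in scaling 47 were called higher. Cell cycle genes were called higher in 20 and lower in 3 of 51 cases, and with spike-in scaling in 39 and 2, with E2f2 at 4.10 ± 0.35 and Cdt1 at 2.18 ± 0.22. The growth inhibitor Cdkn1c fell by 3.48 ± 0.69 and the cyclin Ccnd3 fell by 2.63 ± 0.23. Of 28 glycolysis genes 13 rose and 4 fell: the pyruvate kinase gene Pklr rose by 7.93 ± 0.37 and Fbp1, of glucose synthesis, by 10.68 ± 0.80, while Ldhb fell by 5.17 ± 0.83 and Eno2 was at least 223-fold lower. Of 32 cholesterol genes 7 rose and 5 fell, or 21.9% and 15.6% against 20.2% and 23.3% of all genes. With spike-in scaling the counts were 22 and 3. The exporter Abcg5 changed by 10.11 ± 0.67, Abca1 by -4.72 ± 0.93 and the lipase Lpl by -4.23 ± 0.69, all called. Of 33 genes of fatty acid oxidation 12 rose, led by Bdh1 (4.37 ± 0.42) and Pparg (4.18 ± 0.34), and 3 fell, led by Cpt1c (-6.56 ± 0.48). With spike-in scaling 25 and 1 did.

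Mucosal defence genes rose in 19 and fell in 4 of 30 cases. The antibody transporter Pigr was at least 1600-fold higher, the bacterial exclusion protein Lypd8 was at least 8920-fold higher and Dmbt1 rose by 12 ± 1.04. Chemokines and cytokines rose in 14 and fell in 9 of 34 cases. Ccl25, the chemokine that calls lymphocytes to the small intestine, rose by 5.22 ± 0.44, while Cxcl12, of fibroblasts, fell by 11.34 ± 0.84, and Cxcl14 fell by 10.78 ± 0.78. Ccl2 changed by -2.72 ± 1.27 (adjusted p = 0.0751) against MEFs, not called, and was at least 176-fold higher than in FI organoids (adjusted p = 0.00227). The Ccl2 call against FI organoids was lost with the slide as a term. Of 28 chemokine and cytokine genes tested against FI organoids 15 were called higher and 1 lower, against 5.73% and 5.03% of all genes. Interferon response genes were called higher in 6 and lower in 9 of 35 cases, or 17.1% and 25.7% against 20.2% and 23.3% of all genes. With spike-in scaling the counts were 10 and 3, and the median change of the list turned from -0.84 to 0.16. Antigen presentation genes were called higher in 5 and lower in 8, and with spike-in scaling in 10 and 1. The class I gene H2-K1 rose by 2.87 ± 0.24.

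Of 19 genes of stomach, pancreas, lung and colon tested 12 rose and 3 fell. Another 9 of the 28 on the array were not well above background throughout either group. Gkn2, a gastric mucus protein (probe at chr6:87329285-87329344, mm9), read -8.06, -9.06 and -7.96 in MEFs, 6.76, 2.63 and 3.04 in iFIPC organoids and -9.19, -8.33 and -5.47 in FI organoids. Gkn2 was at least 1310-fold higher, with an adjusted p of 4.65e-06, and stood 11.81 ± 1.38 above FI organoids, of which 1 of 3 arrays showed it well above background. The colon enzyme Car1 rose by 7.84 ± 2.28. Hepatocyte genes were called higher in 8 and lower in 2 of 20 tested (11 and 0 with spike-in scaling), and 13 of the 33 on the array, Alb among them, were not well above background throughout either group. Ttr, made by liver and by other epithelia, was at least 32.8-fold higher. Immune and blood cell genes were called lower in 9 of 14 cases, with the macrophage gene Adgre1 at least 95.1-fold lower. Endothelial genes were called lower in 6 and higher in 2 of 10, with Kdr at least 96-fold lower, and neuron and glia genes lower in 7 and higher in 1 of 13 (4 and 2 with spike-in scaling). Of the 9 pluripotency genes tested 2 were called higher and 2 lower (5 and 1 with spike-in scaling). The main counts are 22.2% each way, near the 20.2% and 23.3% of all genes. Nanog and Pou5f1 were not tested since neither group had them above background throughout.

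The 3 iFIPC arrays differed from each other. Among the 13602 tested genes above background on all 3 arrays, array 1 read highest for 5748, array 2 for 4086 and array 3 for 3768, and the arrays lay more than 2 units apart for 654 (4.81%). Array 2 was on another slide than arrays 1 and 3. Cell cycle genes read highest on array 1 in 44 of 51 cases. Weaning-stage genes read lowest on array 1 in 12 of 15 cases and highest on array 2 in 13, and microvillus genes lowest on array 1 in 20 of 24. Sis, at 4.88, 7.31 and 6.63, shows the difference. The gastric gene Gkn2 read highest on array 1, as given above.

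Interferon response genes read highest on array 3 in 26 of 32 cases. Isg15 read -3.23, -1.59 and 1.04 on iFIPC arrays 1 to 3, and its change of -2.21 ± 0.98 (adjusted p = 0.0637) against MEFs was not called. Without array 3 it was -3.35 (adjusted p = 0.00232) and without MEF arrays 2 and 3 -3.14 (adjusted p = 0.0446), called lower both times. Of 18 keratins and other intermediate filaments 9 read highest on array 3, 7 on array 2 and 2 on array 1. Krt5, Krt14 and Krt16 are keratins of stratified epithelium. Krt5 (probe at chr15:101537514-101537573, mm9) read 2.71, -0.36 and 7.10 on the iFIPC arrays, -4.48, -4.22 and -4.32 in MEFs and -3.74, -3.65 and -4.25 in FI organoids, and was called higher by 7.53 ± 1.47 against MEFs. Krt14, its partner, read -2.28, -2.92 and 5.81, and its change of 3.95 ± 1.77 (adjusted p = 0.0666) was not called. With 1 iFIPC array left out it was called, at 5.20 without array 1, 5.52 without array 2 and 1.15 without array 3. Krt16 read -1.61, -1.79 and 6.04 and changed by 3.36 ± 1.64 (adjusted p = 0.0893), not called, but it was called without array 1, at 4.60, and without array 2, at 4.69. Fibroblast genes read highest on array 2 in 18 of 29 cases and lowest on array 3 in 18. These differences between arrays have no test.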

How the data were processed

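Each array was a one-colour Agilent mouse gene expression array. The deposited intensity values are the processed, mean and background signals of Feature Extraction, which subtracts background within an array and does not scale between arrays. Per the file headers this was version 9.5.1.1 for the MEF arrays and 10.7.1.1 for the organoid arrays, while the submitters' processing notes give 9.5.1.1 for all. The other deposited columns used are flags of 0 or 1 for spots above background, saturated spots and outliers. The series matrix of the authors holds intensity values on a linear scale with the same sorted values on every array, and it served only as an alternative. Its centring beyond that is not given in the sources used here, and no per-sample column was left unused (0).

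The log2 of the processed signal was taken minus its 75th percentile over the 41174 gene probes. Probes were named through RefSeq, 24844 by accession, 6045 by symbol and 1810 by synonym, and 8475 had no name. A gene was read at its probe with the highest mean level, and was tested where a group had that probe well above background throughout. Tests were made with limma 3.58.1 in R 4.3.3 (lmFit and eBayes, two-sided, Benjamini-Hochberg adjustment over all genes tested) over 17 samples for MEFs and over the 12 organoid arrays for FI organoids. Calls needed 0.05 for the adjusted p and a difference of 1 log2 unit, and the code was tested on simulated data. A bound sets the mean of the bright group against the dim group's mean of, per array, the higher of the probe's own level and the lowest level among probes well above background. With 3 arrays against 3 an exact permutation test of one gene cannot go below p = 0.1. The number of arrays limits the precision.

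The comparison and the gene lists were chosen with earlier results of these data known, so counts over lists are descriptions. Named genes are, per list, the called members with the largest changes, some called against the list's main direction and some not called, beside anchor genes, the largest changes of all genes, and fibroblast, Hox and mesenchymal genes still measured in iFIPC organoids; only part of them is printed. The largest changes of all genes leave out symbols of clones and predicted genes. Genes whose call was lost without 1 array were printed only where a result turned on them. Alternatives were tried for background correction, scaling, source of values, samples, slide, filter, probe, size threshold and left-out arrays.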

Additional observations from a re-analysis of the deposited data

How the results depend on the processing

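The counts against MEFs moved by less than 1.5 times under normexp background correction (2501 higher and 3032 lower), quantile normalization (3163 and 3309), median scaling (4156 and 2744), the series matrix (3158 and 3310), a random slide block (3028 and 3481), no filter (3085 and 3996), the mean over all probes (2758 and 3541) and a fit of both groups alone (2990 and 3414). They moved further with spike-in scaling (7189 and 2034), with a log2 change of at least 2 (1820 and 2222) and, for the genes called lower, with a filter for signal in both groups (2301). Leaving out arrays gave 2815 to 3024 and 3316 to 3493; where this left 1 MEF sample, it was assumed to vary like the other groups. Against FI organoids normexp gave 420 lower, a change of at least 2 gave 506 and 228, slide as a term 68 and 56, and leaving out 1 array 529 to 795 and 447 to 722, lowest without FI array 2. Signs turned for Hoxd9 (-0.07 with normexp, -1.43 with the mean over probes, -0.05 to 0.31 over left-out arrays, -0.05 without MEF array 1), Creb3l1 (0.12 with median scaling, 0.77 with spike-in scaling, -0.84 to 0.22 over left-out arrays, 0.06 without iFIPC array 2 or 3 and 0.22 without MEF arrays 2 and 3), Gas6 (0.14), Srf (0.53) and Tbx15 (0.16) with spike-in scaling, and Gata6 against FI organoids (0.52 with the mean over probes); the cause was not tested. Over the genes named and all alternatives, 4038 values kept sign and call, 53 lost a call, 47 gained one and 12 changed sign. Replicate numbers did not pair the samples with MEFs, where deviations of same-numbered arrays correlated at -0.01 to 0.02. With FI organoids they correlated at 0.07 to 0.09, and arrays of other numbers at -0.07 to 0. Every array correlated best with its own number there, and whether these samples are paired was not tested. With all 18 arrays separate, 3085 genes were higher and 3539 lower, and with a replicate block 3073 and 3528; against FI organoids the block gave 751 and 666.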
